A study of Mus musculus with 960 samples.

Results

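In the open chromatin of a mouse breast tumour, about 190 stretches of the genome, 7.47 per 100 Mb, held 10 or more accessible windows each, lying close together and away from the start sites of protein-coding genes. Their members are 2562 windows of 500 bp, which make up 7.99% of the 32066 distal windows and 5.12% of all 50000 windows in the deposited list. The clusters are 1.20% of the 15946 groups and single windows that joining gave. The members were chosen by position alone. A window was taken as distal when its midpoint lay over 1 kb from every start site of a coding transcript (GENCODE release M1, mouse build mm9), distal windows with gaps of at most about 12 kb were joined (the exact limit is given with the processing), and groups of 10 or more were kept. The number and closeness of the windows are therefore what chose the clusters and are given below as a description. Distance to start sites entered the choice, so windows at promoters are left out by construction. Whether a window lies in an intron or between genes, its sequence and which genes lie around it were not used.

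The list came from Pi-ATAC, a single-cell assay in which fixed and permeabilised cells are stained with antibodies, Tn5 transposase tags their accessible DNA in bulk, and single cells are then sorted into wells for sequencing. The cells were from a primary tumour of the MMTV-PyMT mouse, in which the mouse mammary tumour virus promoter drives polyoma middle T antigen and gives rise to tumours of the mammary epithelium. The labels list 8 plates of 96 wells in which cells carried antibodies to EpCAM, found on the surface of epithelial cells, and to HIF1a, the subunit of hypoxia-inducible factor that oxygen controls. On 2 further plates of 96 wells the antibodies were to EpCAM and to CD45, which marks cells of the blood lineages. The paper describes the cells of its HIF1a experiment as EpCAM-positive cells isolated from the tumour. Its methods state that cells were sorted without selection by stain. All wells share the tumour model, and no animal, dose or time is named in the labels. The authors called the windows on pooled cells, so the list is 1 sample with no replicates and no read counts, and the depth behind a window is unknown. No comparison between stains, wells or animals could be made, and no test was run. Exact (Clopper-Pearson) 95% intervals are given for shares. They cover counting error only, and neighbouring windows are not independent, so the intervals are too narrow.

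Distal accessible sites are in large part enhancers, short stretches of DNA where transcription factors bind and act on the start sites of genes at a distance. Enhancers often gather in groups around genes that set a cell's identity, and such groups have been named super-enhancers when they also carry strong signal of coactivators or active histone marks. The list carries no signal, so the clusters here are groups by position and are not called by that name. In mammary epithelium the luminal layer faces the milk duct and the basal layer is contractile, and factors such as GATA3 and the ETS factor EHF are known for their part in luminal cells.

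To show what the clusters are made of, the middle 300 bases of a window are printed below for 6 of the 8 clusters with most windows, on the plus strand of mm9. In each cluster the window was the one free of annotated exons that matched most of the 19 motifs searched. A window of the cluster upstream of Epcam and one of the cluster in Gata3 are added and were chosen after their values were seen. Capitals mark matches, on either strand, to the NFI core (TTGGCA), the TEAD motif (CATTCCA), the AP-2 motif (GCCNNNGGC) and the KLF motif (CCCCGCCC or CCCCACCC). These are the motifs whose share in the members lay on the same side of other distal windows on 15 or more of 20 chromosomes, apart from a rare full NFI site, so they too were picked after their values were seen.
Intergenic, let-7 cluster, chr15:85475930-85476229: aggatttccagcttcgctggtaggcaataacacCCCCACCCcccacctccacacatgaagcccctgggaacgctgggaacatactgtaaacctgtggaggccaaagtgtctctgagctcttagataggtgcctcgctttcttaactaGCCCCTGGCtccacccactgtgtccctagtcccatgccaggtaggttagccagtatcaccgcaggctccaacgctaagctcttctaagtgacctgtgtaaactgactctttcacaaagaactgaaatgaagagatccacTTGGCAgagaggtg
Intron of Coro2a, chr4:46587090-46587389: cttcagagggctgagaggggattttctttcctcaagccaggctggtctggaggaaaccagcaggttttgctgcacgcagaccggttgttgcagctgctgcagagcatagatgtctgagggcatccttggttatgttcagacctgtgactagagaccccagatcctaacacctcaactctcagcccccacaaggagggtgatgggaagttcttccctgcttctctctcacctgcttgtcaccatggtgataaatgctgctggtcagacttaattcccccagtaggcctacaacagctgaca
Intron of Gab1, chr8:83380518-83380817: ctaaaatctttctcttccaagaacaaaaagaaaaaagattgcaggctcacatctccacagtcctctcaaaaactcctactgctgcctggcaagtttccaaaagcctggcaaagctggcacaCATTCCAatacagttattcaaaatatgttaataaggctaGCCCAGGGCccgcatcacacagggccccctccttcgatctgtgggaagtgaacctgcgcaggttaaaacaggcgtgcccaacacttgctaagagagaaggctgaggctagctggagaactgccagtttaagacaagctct
Intron of Nfix, cluster on the 3′ side, chr8:87233054-87233353: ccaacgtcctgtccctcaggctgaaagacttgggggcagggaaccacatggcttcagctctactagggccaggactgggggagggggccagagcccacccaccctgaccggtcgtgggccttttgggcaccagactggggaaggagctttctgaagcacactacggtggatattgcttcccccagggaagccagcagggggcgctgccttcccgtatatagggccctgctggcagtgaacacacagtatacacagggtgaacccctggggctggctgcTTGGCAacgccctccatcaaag
Intron of Nfix, cluster on the 5′ side, chr8:87288966-87289265: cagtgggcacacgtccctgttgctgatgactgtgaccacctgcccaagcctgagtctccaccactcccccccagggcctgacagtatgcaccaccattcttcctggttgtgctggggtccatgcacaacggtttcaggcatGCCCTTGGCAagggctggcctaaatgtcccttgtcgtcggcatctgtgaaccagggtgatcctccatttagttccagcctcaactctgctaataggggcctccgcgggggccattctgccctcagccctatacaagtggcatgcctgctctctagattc
Intron of Dab2ip, chr2:35513731-35514030: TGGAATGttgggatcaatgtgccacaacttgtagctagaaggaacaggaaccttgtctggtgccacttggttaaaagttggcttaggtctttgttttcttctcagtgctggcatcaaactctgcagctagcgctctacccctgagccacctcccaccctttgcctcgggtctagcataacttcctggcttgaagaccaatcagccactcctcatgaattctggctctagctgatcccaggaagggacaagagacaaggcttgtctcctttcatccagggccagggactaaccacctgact
Intergenic, upstream of Epcam, chr17:88008962-88009261: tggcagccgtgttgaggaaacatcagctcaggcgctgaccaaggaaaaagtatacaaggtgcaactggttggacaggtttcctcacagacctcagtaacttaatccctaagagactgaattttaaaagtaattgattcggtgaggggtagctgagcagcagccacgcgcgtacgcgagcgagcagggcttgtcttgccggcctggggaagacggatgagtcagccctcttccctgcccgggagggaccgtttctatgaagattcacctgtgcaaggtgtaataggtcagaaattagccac
Intron of Gata3, chr2:9783897-9784196: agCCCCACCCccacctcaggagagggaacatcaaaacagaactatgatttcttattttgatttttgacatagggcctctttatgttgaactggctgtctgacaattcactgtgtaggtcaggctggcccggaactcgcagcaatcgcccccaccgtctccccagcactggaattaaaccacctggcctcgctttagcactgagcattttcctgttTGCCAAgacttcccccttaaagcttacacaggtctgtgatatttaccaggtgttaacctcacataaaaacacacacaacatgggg

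Of these windows, the one in the let-7 cluster held an NFI core, an AP-2 and a KLF match in its middle 300 bases. In the window of the 5′ cluster of Nfix, the AP-2 match and the NFI core overlap by shared letters. No marked motif was found in the middle of the Coro2a and Epcam windows. Over its full 500 bp the Epcam window matched 7 of the motifs searched, among them AP-1, GRHL and TEAD, and it lay 26207 bp from the nearest start site. A match is a run of letters and says nothing about binding.

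The clusters held a median of 12 windows and at most 36. Most were near the lower limit, with 73.8% of clusters holding 10 to 14 windows (61.9% of members), 28 clusters with 15 to 19 (17.9% of members) and 22 with 20 or more (20.2% of members). They spanned 8.65 kb to 104378 bp (median 32.8 kb) and 6.88 Mb in all, which is 0.269% of the ungapped genome. Windows covered 8.14% to 55.1% of a cluster's span (median 18.3%), and their density ran from 1.63 to 12.7 per 10 kb (median 3.88). Another measure of size is the number of called peaks, because MACS2 can place several summits, and so several windows, in 1 broad peak. The members came from 1709 called peaks, 2 to 24 per cluster (median 8), and 68.6% of clusters held fewer than 10 called peaks. In 11 clusters at least 50% of the windows came from a single called peak. Of the 2371 gaps between neighbouring members, 23.1% were 0 or negative, so those windows touched or overlapped, and the other gaps had a median of 1938 bp.

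**Figure D1:**
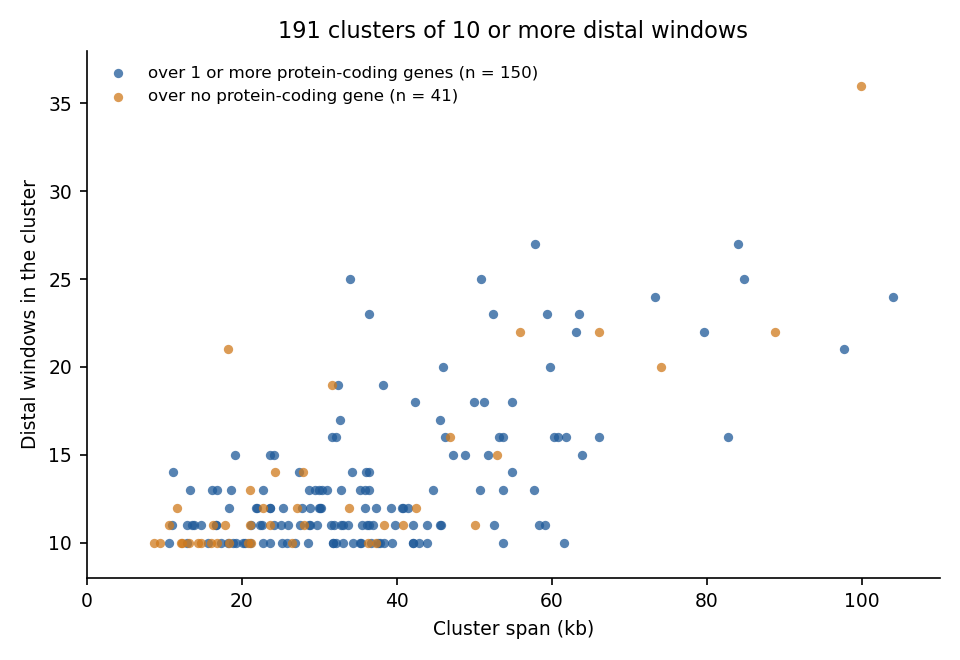
Number of distal windows against span in kb for each cluster, 1 point per cluster, blue where the cluster lies over a protein-coding gene and orange for the 41 clusters over none. The cluster of 36 windows stands above all others, spans 99.9 kb and lies over no protein-coding gene, and the longest, in Ptprj, spans 104378 bp with 24 windows.

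At the limits of the rule, 49 clusters had exactly 10 windows and stayed in, while 77 groups had exactly 9 and stayed out. Among those with 10 were the cluster upstream of Epcam and that over Grhl1, and among those left out were groups of 9 windows near Hes1, Rb1 and Itga6, named after their values were seen. The largest gap inside a cluster was 12393 bp and the smallest gap between a cluster and the next distal window was 12506 bp. In 69 clusters at least 1 gap was over 10 kb. Only 2 members lay within 20 bp of the limit of 1 kb to a start site.

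The cluster with most windows lay at chr15:85441111-85540983, with 36 windows from 24 called peaks over 99.9 kb and a median GC content of 57.1%. All 36 windows were intergenic, and the nearest protein-coding start site, 25011 bp away, was that of Ppara, a nuclear receptor that governs fatty acid oxidation. The cluster holds the genes of Mirlet7c-2 and Mirlet7b, members of the let-7 family of microRNAs, known as brakes on growth and stem cell factors. KLF matches were found in 18 of its windows, AP-2 and NFI core matches in 14 each, and AP-1 in 1.

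Most windows of the next clusters described lay in introns. At chr4:46545319-46603120, 27 windows covered Coro2a, an actin-binding coronin, and ran into Trim14, with 25 windows in introns. Gab1, a docking protein of receptor tyrosine kinases, held 25 windows (chr8:83318637-83403399), all in introns and from 1228 to 85491 bp from its start site. Its median GC content was 48.6%, and it had 6 TEAD and 3 KLF matches. Dab2ip, a Ras GTPase-activating protein, held 24 windows in introns (chr2:35463035-35536339). Ptprj, a receptor-type tyrosine phosphatase, had 24 windows over the longest span (chr2:90320653-90425030), 23 in introns, and none with a KLF match.

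Nfix, a transcription factor of the nuclear factor I family, had both a cluster of 25 windows on its 3′ side (chr8:87223451-87274344) and a cluster of 25 on its 5′ side (chr8:87287962-87321830). They were separated by 13.6 kb, just over the joining limit, and together held 50 windows, more than any single cluster. The 3′ cluster also ran over Lyl1, G430095P16Rik and the end of Trmt1, and 6 of its windows lay on 3′ UTRs. The 5′ cluster lay wholly in introns and was the more compact, with 7.38 windows per 10 kb against 4.91. AP-2 matches were found in 14 windows of the 5′ cluster and 5 of the 3′ cluster, and KLF matches in 4 and 11.

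Pmepa1, an inhibitor of TGF-β signalling, had 23 windows (chr2:173054936-173107288), 21 in introns. A cluster over Lrrc27 and Pwwp2b had 23 (chr7:146419544-146483032), of which 14 were intergenic. The cluster at 6430527G18Rik, listed by RefSeq as Irf2bpl, had 23 windows in 36.4 kb (chr12:88201464-88237860), 21 of them intergenic and from only 9 called peaks. Trib1, a Tribbles pseudokinase, had 23 windows around it (chr15:59446700-59506068), 18 intergenic. The third longest cluster, at Irf2bp2, spanned 97.6 kb with 21 windows (chr8:129040958-129138572), and AP-1 matches were found in 13 of these. By density, the leading clusters were at the start of Tnrc18 (14 windows in 11.1 kb, 12.7 per 10 kb), near Gm5146 (10 windows in 8.65 kb, 11.6 per 10 kb) and near Bcl9l, a coactivator of β-catenin (21 windows in 18.2 kb, 11.5 per 10 kb, 3577 bp from the start site).

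**Figure D2:**
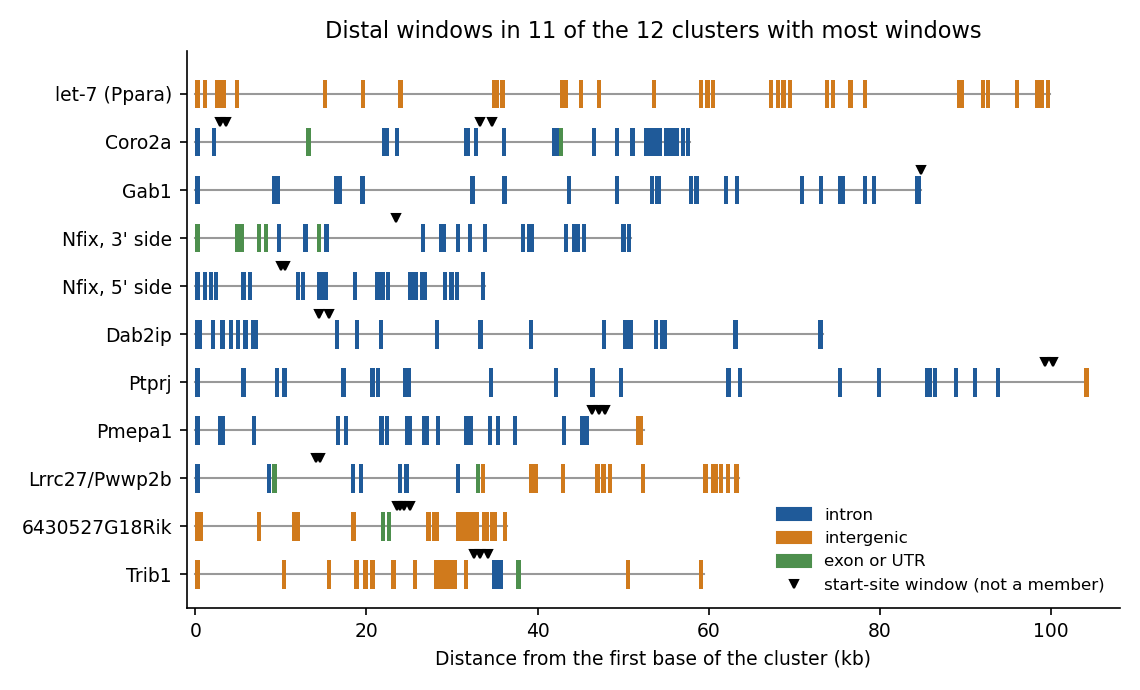
Map of 11 of the 12 clusters with most windows, with distance in kb from the first base of each cluster on the x axis. Boxes are member windows (blue in introns, orange between genes, green on exons or UTRs), and triangles are windows at start sites, which are not members. All 36 windows of the let-7 cluster are orange, those of Gab1 and Dab2ip are all blue, and the span without a window is short in the 5′ cluster of Nfix.

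Clusters also came in pairs. In 10 cases neighbouring clusters lay within 50 kb of each other, and in 12 cases within 100 kb, while the median distance between neighbours on a chromosome was 5.98 Mb. Besides Nfix, a cluster of 22 windows and one of 19 lay 15.4 kb apart between Cebpb and Ptpn1, with 41 windows together and none at a start site between them. Further pairs lay at 6430527G18Rik (38 windows, 17.2 kb apart), at 2010111I01Rik (36 windows, 19.3 kb apart; RefSeq name Aopep), at Irf2bp2 (31 windows, 49.9 kb apart) and at Phlda1 (24 windows, 19.3 kb apart). These pairs follow from the joining limit and were named after their values were seen.

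Measures that the rule did not use are taken up next, beginning with place. Of the 2562 members 53.6% (exact 95% interval 51.7% to 55.6%) had their midpoint in an intron, 42.0% were intergenic, 1.83% lay on coding exons and 1.60% on 3′ UTRs. Among the other 29504 distal windows 44.6% were intronic, and the members' share was higher on 14 of 20 chromosomes. It was 45.2% in the 20191 windows of groups of 2 to 9 and 43.2% in the 9313 single windows. First introns held 31.4% of members, against 20.4% and 17.4% in groups of 2 to 9 and in single windows. Clusters differed widely, since in 47 every window was intronic, in 46 every window was intergenic, and 73 held both kinds. By size, the intronic share was 53.2% in clusters of 10 to 14 windows, 60.6% in those of 15 to 19 and 48.9% in those of 20 or more, so it did not move in 1 direction with size. With the rule run on called peaks with 2 or more windows only, 43.2% of the members were intronic, against 44.1% of the other distal windows of such peaks.

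Of the clusters 61.3% lay over a single protein-coding gene, 33 over several and 41 over none, and 14 of these 41 lay over a noncoding gene. In all 0.837% of the 22342 protein-coding genes had a cluster over them, and 61 clusters lay wholly inside a gene. A coding start site fell within the span of 95 clusters, and 93 held windows at start sites, which are not counted as members and make up 1.31% of all windows at start sites. In 20 clusters the nearest start site was over 50 kb from the span. The median distance from a member to the nearest start site was 15.6 kb, against 21.9 kb for windows in groups of 2 to 9 and 27.5 kb for single windows. Over 100 kb from a start site lay 4.68% of members, 13.4% of windows in the smaller groups and 20.3% of single windows. Genes with a cluster over the body were long, with a median of 42.4 kb against 15.4 kb for all protein-coding genes. The part of gene length in these counts was not tested.

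The members were richer in G and C than other distal windows. Their median GC content was 52.6%, against 50.2% in other distal windows, and it was higher on 18 of 20 chromosomes. It was 50.6% in groups of 2 to 9, 49.4% in single windows and 62.0% in windows at start sites, so the members lay between the other distal windows and start sites. In contrast, CpG dinucleotides were no more frequent for that base content, with an observed over expected ratio of 0.236 in the members and in other distal windows and of 0.743 at start sites. By the usual island criteria (GC over 50% and a ratio over 0.6), 4.68% of members counted as CpG islands, against 5.85% in groups of 2 to 9 and 68.5% at start sites. The cluster with the highest median GC content was that over Bcor on chromosome X, at 65.4%, named after its values were seen.

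KLF factors, among them the epithelial factors KLF4 and KLF5, bind GC-rich boxes. KLF letters were found in 23.2% of members (21.6% to 24.9%) and 17.1% of other distal windows (16.7% to 17.5%), a ratio of 1.36, with members higher on 18 of 20 chromosomes. The share was 14.3% in single windows, 18.4% in groups of 2 to 9 and 46.1% at start sites. In windows of 45% to 55% GC the shares were 17.3% and 13.7%, a ratio of 1.26. Among windows over 10 kb from a start site the ratio was 1.50, and among windows from called peaks with a single window it was 1.34. Within the band of 45% to 55% the members were still the richer in G and C, with a median of 50.8% against 49.8%, and the part of base content in these shares was not tested.

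AP-2 factors are regulators of epithelial genes. AP-2 letters were found in 26.8% of members (25.1% to 28.6%) and 23.1% of others (22.6% to 23.6%), with members higher on 15 of 20 chromosomes. At 45% to 55% GC the shares were closer, at 22.1% and 20.8%. Matches to the Snail motif (CAGGTG), a site of repressors of the epithelial state, were found in 42.3% of members and 38.3% of others, a ratio of 1.11 that was 1.02 at 45% to 55% GC.

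Other motifs were less frequent in the members. Nuclear factor I binds TTGGCA as the core of a palindrome, and this core was found in 35.9% of members (34.1% to 37.8%) and 41.7% of others (41.2% to 42.3%). The members were lower on 17 of 20 chromosomes, and the ratio of 0.861 was the same at 45% to 55% GC. The full palindrome (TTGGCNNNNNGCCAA) was found in 2 members and in 0.159% of others, too few to compare. TEAD factors carry the output of the Hippo pathway, and their motif was found in 7.18% of members (6.21% to 8.25%) and 9.77% of others (9.43% to 10.1%), a ratio of 0.735 that was 0.746 at 45% to 55% GC. SOX letters (ACAATG) were found in 19.5% and 24.0%, with a ratio of 0.812 and of 0.830 at 45% to 55% GC. The CTCF motif, that of an insulator protein, was found in 1.64% of members (1.18% to 2.21%) and 2.21% of others (2.04% to 2.38%), and these intervals overlap. At 45% to 55% GC the shares were 1.08%, which is only 17 members, and 2.23%. Among windows from called peaks with a single window they were closer, at 2.23% and 2.54%, and members were lower on 14 of 20 chromosomes. Clusters with a CTCF match numbered 35. The shares fell in order from single windows through groups of 2 to 9 and members to start sites for the NFI core (44.4%, 40.5%, 35.9% and 18.7%), TEAD (10.2%, 9.58%, 7.18% and 4.62%) and SOX (24.1%, 23.9%, 19.5% and 10.9%).

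AP-1, the Fos and Jun dimer that binds TGANTCA, is a common motif of open enhancers in tumour epithelium. It was found in 18.0% of members (16.6% to 19.6%) and 18.7% of others (18.2% to 19.1%), with members higher on 11 of 20 chromosomes, and so did not differ by more than the counting error. Within clusters it was found in 21.5% of the first and last windows of the clusters and 17.4% of the 2180 inner windows. Its share per cluster ran up to 66.7%, in a cluster near Tomm20 with 8 of 12 windows, named after its values were seen. ETS letters (CNGGAAGT) were found in 11.4% and 12.3%, GRHL letters (AACCNGTT), those of the Grainyhead-like epithelial factors, in 5.50% and 6.12%, and RUNX letters (TGTGGTT) in 11.4% and 11.6%. The core of the HIF site (ACGTG or GCGTG) is short and was found in 50.1% of members and 48.5% of others. The letters searched for GATA factors were AGATAA, those for FOX factors TGTTTAC and those for STAT factors TTCCNNGAA, while TCF factors were searched by CTTTGA and p53 by its decamer. These motifs had ratios from 0.884 to 1.01. The C/EBP palindrome (TTGCGCAA) was found in 0.273% of members and 0.176% of others. Overlapping windows share sequence, so matches in such windows are counted more than once.

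**Figure D3:**
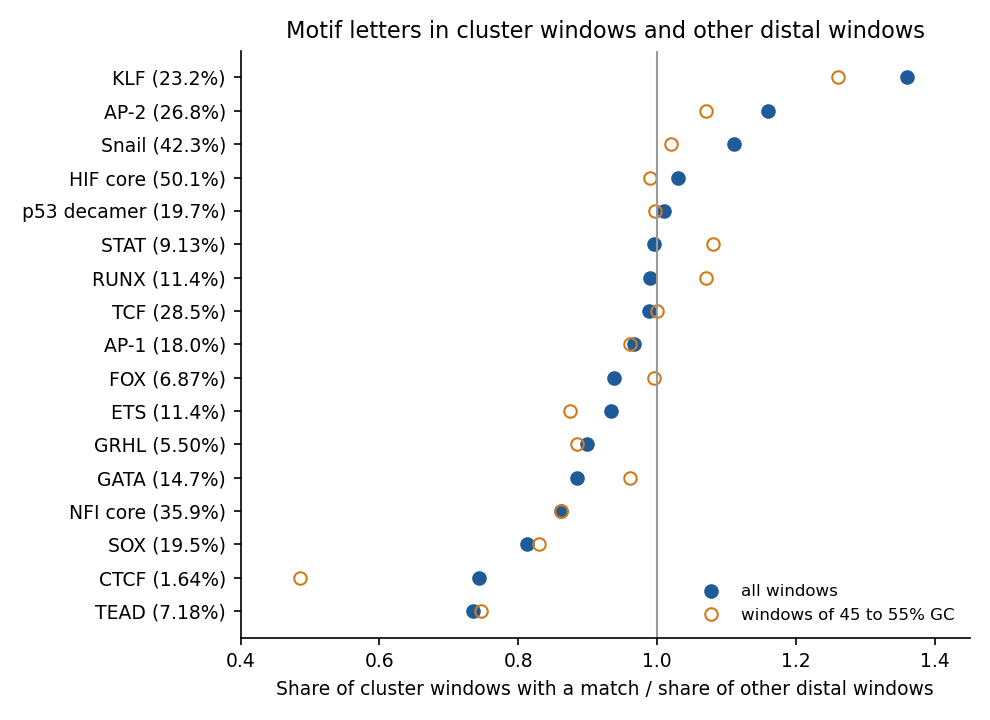
Ratio of the share of member windows with a motif to the share of other distal windows, over all windows (blue) and over windows of 45% to 55% GC (open circles), with the members' share beside each name. KLF (1.36) and AP-2 (1.16) lie to the right of 1, and TEAD (0.735) and SOX (0.812) to the left. CTCF moves from 0.743 to 0.486 at 45% to 55% GC, where only 17 members had a match.

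The genes around the clusters were examined by 18 lists of genes, counting a gene when a cluster lay over it or within 50 kb of a start site. Of all 22342 protein-coding genes 1.96% met this, and 0.837% had a cluster over the gene body. Windows at start sites differed between the lists. Since the paper describes the cells of its HIF1a experiment as EpCAM-positive, these counts need not stand for the whole tumour. The part of cell choice in them was not tested. A window at the start site was found for 24 of 25 luminal genes and all 20 housekeeping genes, but for 1 of 20 blood cell genes, 1 of 16 fibroblast genes, 2 of 16 endothelial genes, 1 of 11 adipocyte genes, 4 of 16 neuronal genes and 1 of 16 hepatocyte genes, against 51.7% of all genes. Of the other lists of mammary epithelium, the epithelial factors had one in 25 of 29 cases, while the basal and myoepithelial genes had one in 8 of 18 (44.4%) and the milk genes in 5 of 12 (41.7%), both below the share of all genes. Genes with a cluster had a window at the start site in 77.4% of cases (73.2% to 81.3%), and those with a cluster over the body in 92.5% (87.8% to 95.8%).

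Luminal epithelial genes had a cluster in 6 of 25 cases (24.0%, 9.36% to 45.1%), against the 1.96% of all genes, and these 6 genes shared 4 clusters. Epcam (chr17:88035319-88050446), which encodes the surface protein stained in every well, had 10 windows in 18.4 kb of intergenic sequence upstream (chr17:88001351-88019723), from 15.8 to 33.7 kb from its start site. This cluster had AP-1 and KLF matches in 4 windows each and was at the lower limit of 10 windows. Krt8 and Krt18, the paired keratins of simple epithelium, lie next to each other and shared 13 windows (chr15:101833395-101856054), of which 12 lay between genes, 1.03 to 21.0 kb from the Krt8 start site and 2.84 to 25.0 kb from that of Krt18. Cldn3 and Cldn4, tight junction claudins, shared 11 intergenic windows (chr5:135465380-135498192), with NFI core matches in 9 of them and AP-1 in none. They lay 3.55 to 35.9 kb from the start site of Cldn3, but 42.8 to 75.1 kb from that of Cldn4, and the span also holds Abhd11. St14, the membrane protease matriptase, held 11 windows in the gene (chr9:30915985-30938633). Krt7 and Krt19 were without a cluster, with 0 and 9 distal windows within 50 kb.

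Epithelial transcription factors had a cluster in 6 of 29 cases (20.7%, 7.99% to 39.7%), each with its own. Cebpb, a factor of mammary development, had 22 windows downstream, from 38001 to 103596 bp from the start site. Gata3, a regulator of luminal identity, held 14 windows in 27.4 kb within the gene as annotated (chr2:9782340-9809749). The same span held 12 windows at start sites and also runs over 4930412O13Rik and 9230102O04Rik, while Gata3 itself had 5 windows at its start sites. AP-1 matches were found in 5 of the 14 and AP-2 in none. Ehf held 12 windows in introns (chr2:103110689-103134361), with NFI core matches in 7. They lay 9.32 to 32.5 kb from its outermost start site, and the span also held 2 inner start sites and 2 windows at start sites. Id2, an inhibitor of basic helix-loop-helix factors, had 12 windows around it (chr12:25777142-25795584), 8 upstream and 4 downstream. The remaining ones, Tfap2a (annotated as Tcfap2a) with 11 windows and Grhl1 with 10, are named after their values were seen. Foxa1 and Elf3 were without a cluster, with 2 and 6 distal windows within 50 kb. Together the luminal and factor lists had 12 of 54 genes with a cluster (22.2%), on 10 clusters. With overlapping windows counted once 6 of the 54 had a cluster (11.1%, against 0.976% of all genes), and with a minimum of 15 windows 1 (1.85%, against 0.542%). Fewer of all genes had a cluster at both settings, but at the minimum of 15 the share of these lists fell by more and rests on 1 gene. Apart from Cebpb, the genes of these lists with a cluster had clusters of 10 to 14 windows.

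In the nuclear factor I family 3 of 4 genes had a cluster (75.0%, 19.4% to 99.4%). Besides the 50 windows of Nfix, Nfib held 15 in introns (chr4:82140716-82189512), 162391 to 210688 bp from its outermost start site and with 4 windows at inner start sites, and Nfic had 14 (chr10:80864379-80898589), 11 of them over the gene. Nfia had 18 distal windows within 50 kb of its start sites, but the largest group held 6.

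Of the 15 genes of ERK feedback and the PEA3 factors 2 had a cluster (13.3%, 1.66% to 40.5%). They were Dusp6, a phosphatase of ERK, with 11 windows in 13.0 kb (chr10:98719255-98732300), and Phlda1, induced by growth factors, with 24 in a pair of clusters. Among 20 receptor tyrosine kinases and ligands 2 were counted (10.0%, 1.23% to 31.7%). Ephb3, an Eph receptor, had 11 windows (chr16:21207970-21253646), 2 of them over the gene. Fgfr2 was counted because its annotated model spans 3009 kb, and the cluster in question (chr7:139861947-139885661) lies within Lhpp and 429372 bp from the nearest Fgfr2 start site. Egfr and Erbb2 were without a cluster, with 7 and 9 distal windows within 50 kb. Of 14 AP-1 genes 1 had a cluster (7.14%, 0.181% to 33.9%). This was Junb, with 15 windows in 23.6 kb (chr8:87498631-87522190), in a cluster that also runs over Hook2 and Prdx2. Jun and Jund had 10 and 14 distal windows within 50 kb, in groups of at most 5 and 8. The intervals of the ERK feedback, receptor kinase and AP-1 lists include the 1.96% of all genes.

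Hypoxia response genes had a cluster in 3 of 30 cases (10.0%, 2.11% to 26.5%). Hk1, the hexokinase of the first step of glycolysis, held 20 windows in introns (chr10:61741886-61801593). They lay 41312 to 100520 bp from its outermost start site, and the span also held 2 inner start sites and 1 window at a start site. Slc2a1, the glucose transporter GLUT1, had 13 (chr4:118774890-118811278), 9 of them in the gene, and Ddit4, an inhibitor of mTOR signalling, had 11 from 30.6 to 66.4 kb away, in and beside Dnajb12. Hif1a, which encodes the stained HIF1a, had 1 window at its start site and 1 distal window within 50 kb, with the nearest cluster 4390 kb away, and Epas1 had 3 distal windows within 50 kb. Among 18 cell cycle and growth genes 1 had a cluster (5.56%, 0.141% to 27.3%). This was Irs2, an adaptor of the insulin receptor, with 15 windows (chr8:10945949-11009884), and Myc and Mycl1 had no cluster. Among 12 milk genes 1 had a cluster (8.33%, 0.211% to 38.5%). It was Btn1a1, the butyrophilin of the milk fat globule, with 17 windows (chr13:23522608-23568058), 15 of them intergenic. The caseins Csn1s1 and Csn1s2a had 0 and 1 distal windows within 50 kb.

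No cluster was found for 9 lists. These were the 18 basal and myoepithelial genes (Krt5 and Krt14 with 2 distal windows each within 50 kb), the 24 genes of cell adhesion and the laminin receptor (Itga2 and Itga3 with 0 and 1), the 20 housekeeping genes (Actb and Gapdh with 8 and 2), and the markers of blood cells, fibroblasts, endothelium, adipocytes, neurons and hepatocytes. Over the last 6 of these lists 0 of 95 genes had a cluster. By a rule of thumb (3 counts over the 95 genes, not an exact interval) this allows a share of up to about 3.16%. It does not set them apart from the 1.96% of all genes. Ptprc, which encodes CD45, had no distal window within 50 kb, and its nearest cluster lay 16972 kb away. The housekeeping genes all had a window at the start site, and their 0 of 20 with a cluster allows a share of up to 16.8% (exact interval). The lists were small and were chosen with earlier results of these data known. Only the intervals of the luminal, epithelial factor, nuclear factor I and hypoxia lists lay above 1.96%, and that of hypoxia began just above it, at 2.11%. The 1.96% is a share of all genes, of which 51.7% had a window at the start site. Of the 11551 genes with such a window 340 had a cluster. Such a window was found for 86.2% to 100% of the genes of these lists (93.3% in the hypoxia list). In the adhesion and laminin receptor list, where no gene had a cluster, it was found for 95.8%. The part of start-site windows in these shares was not tested.

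**Figure D4:**
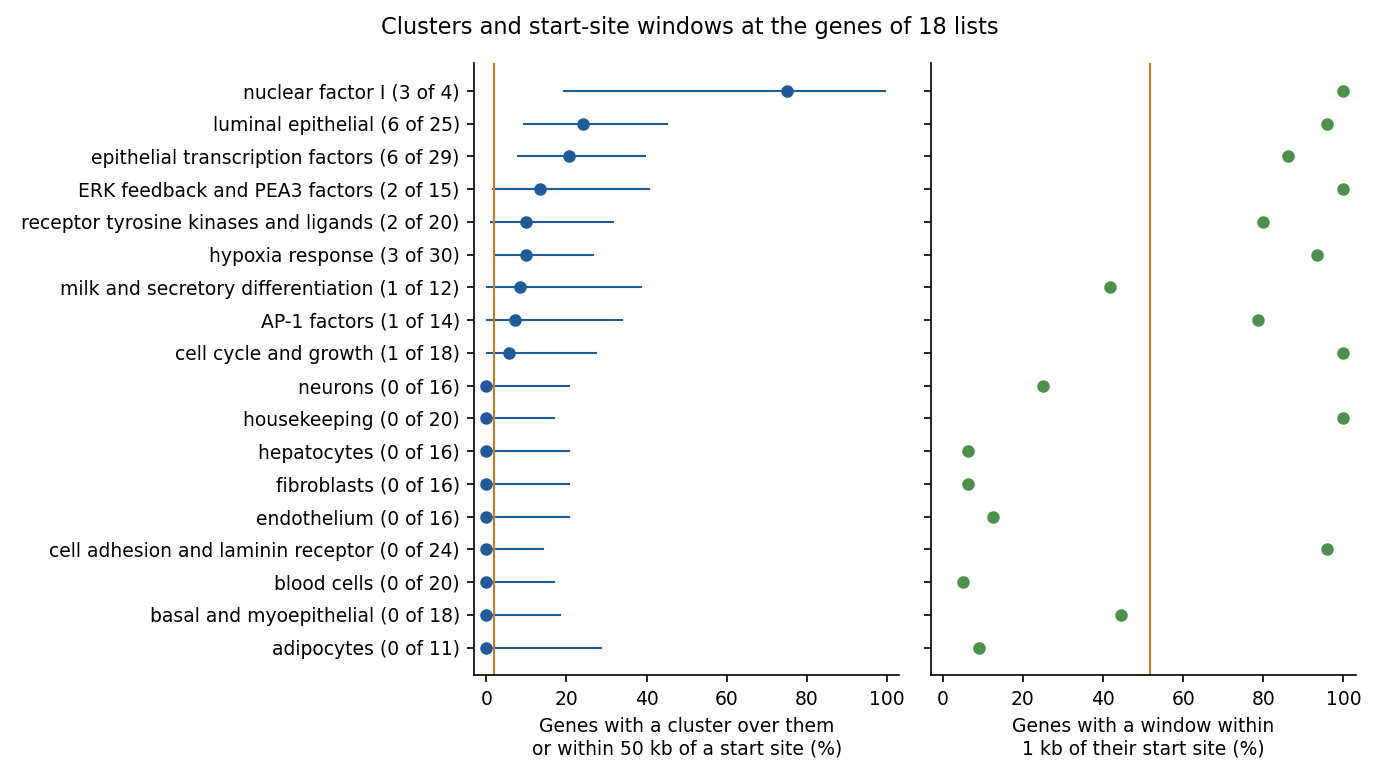
For each of 18 gene lists, the share of genes with a cluster over them or within 50 kb of a start site (left, points with exact 95% intervals, vertical line at the 1.96% of all protein-coding genes) and the share whose start site has a window within 1 kb (right, vertical line at 51.7%). Housekeeping genes are at 100% on the right and at 0 on the left, while luminal genes are at 96.0% and 24.0%.

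MicroRNA genes were counted because they were not among the start sites used. Of 1576 in the annotation 14 (0.888%) lay inside a cluster, while cluster spans make up 0.269% of the ungapped genome. Several of the 14 share a cluster and are not independent. The 0.837% of protein-coding genes with a cluster over the body is an unlike count, since these longer genes were counted on any overlap. The mature strands of the let-7 pair in the cluster with most windows and of the Mir23a, Mir27a and Mir24-2 genes, a single unit in a cluster of 13 windows, all intergenic, whose span reaches Zswim4 (chr8:86704280-86734697), are printed from RefSeq (GRCm38.p6), with the seed (bases 2 to 8) in capitals.
let-7c-5p: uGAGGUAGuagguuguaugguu
let-7b-5p: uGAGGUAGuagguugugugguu
miR-23a-3p: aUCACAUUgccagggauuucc
miR-27a-3p: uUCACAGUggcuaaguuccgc
miR-24-3p: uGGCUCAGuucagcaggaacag

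The let-7 strands share a seed, and the other 3 each have their own. The midpoint of a window lay 18 bp from the middle of Mirlet7c-2 and 0.693 kb from that of Mirlet7b. The windows nearest to Mir23a, Mir27a and Mir24-2 were 1994, 1834 and 1681 bp away by midpoint, in a cluster with a median GC content of 61.0%. Mir343, in a cluster of 11 windows over Ercc2, Klc3 and Ppp1r13l, lay 83 bp from a window's midpoint, and Mir345 lay 3592 bp from one. These microRNAs were named after their values were seen.

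Across chromosomes the members made up 1.85% of distal windows on chromosome 3 (3 clusters) to 13.0% on chromosome 8 (17 clusters). Chromosomes 4 and 7 had most clusters, 19 each, and chromosome 7 had 11.9% of its distal windows in clusters. Chromosome X had the lowest density of distal windows, 3.25 per Mb against 9.73 to 16.2 on the autosomes, yet 7.21% of these were members, close to the 7.99% of the whole list. They lay in 3 clusters, over Bcor with 15 windows, over Cldn2 and Ripply1 with 12, and near Tsc22d3 with 11, named after their values were seen.

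**Figure D5:**
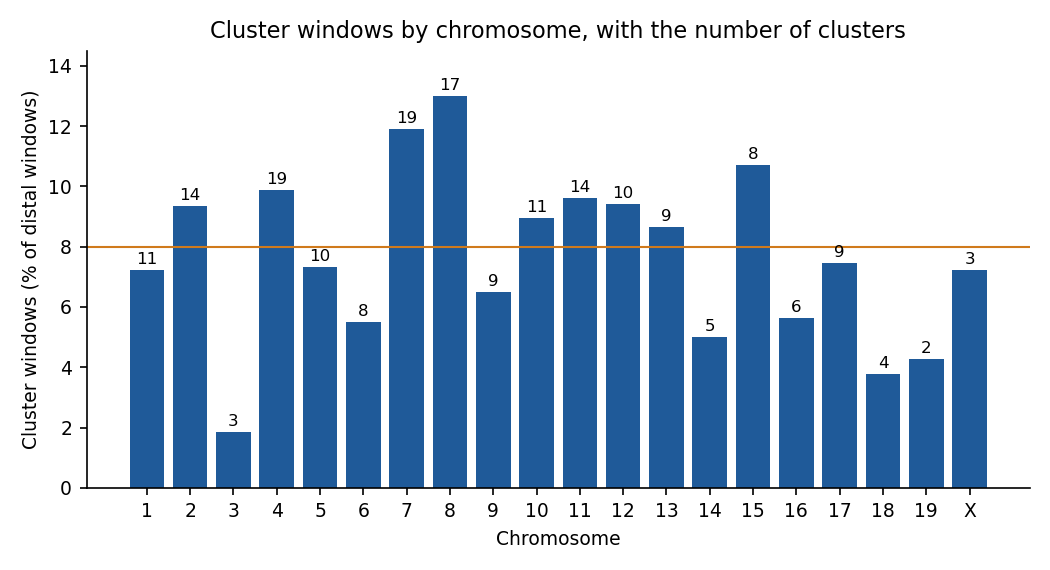
Members as a percentage of distal windows on each chromosome (bars from 0), with the number of clusters above each bar and the 7.99% of the whole list as a line. Chromosome 8 is highest at 13.0% and chromosome 3 lowest at 1.85%.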

How the data were processed

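The deposited file is a list of 50000 regions of 500 bp on mm9, each with a name and no other value (1 pooled sample, and 0 columns of other samples). Per the methods, the authors mapped reads with Bowtie2 (version 2.1.0), removed duplicates with Picard (version 1.79) and called summits on pooled cells by MACS2, whose version is not given in the sources used here, then kept the windows with the lowest q-values. The submitters' processing notes name these tools. The sources do not state if the wells stained for CD45 were pooled as well. The labels list 768 wells with the EpCAM and HIF1a stains and 192 with the EpCAM and CD45 stains.

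Positions were converted to 1-based coordinates, and midpoints were compared with 45939 start sites of coding transcripts of 22342 genes (GENCODE M1, chromosomes 1 to 19 and X). The plan described start sites as those of all transcripts of protein-coding genes. Coding transcripts were used instead, the other reading was run as an alternative added after seeing the data, and it gave 182 clusters. Distal windows with gaps of at most 12.5 kb were joined, and groups of 10 or more windows gave the 191 clusters and 2562 members. Summits of 1 called peak were recognised by the shared number in their names. Motifs were searched on both strands of the 500 bp, counting a window once, with the genome of the same build. Analysis used Python (3.11.15), numpy (2.4.6), scipy (1.17.1) and matplotlib (3.10.9), and joining, motif search and intervals were tested on simulated data.

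The members and gene lists were chosen with earlier results of these data known. Of 325 listed genes 324 matched, 4 through another symbol, and Cebpd did not, since GENCODE M1 lists it as a pseudogene. Genes and clusters were named by rule: the 12 clusters with most windows, the 3 longest and the 3 densest, up to 4 members of a list with a cluster and its first 2 without, and Epcam, Hif1a and Ptprc. Of the 12 clusters, 1 is not reported by name here. The number of windows behind a gene gives no depth, and the precision of a share is limited by the number of windows.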

Additional observations from a re-analysis of the deposited data

How the results depend on the processing

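The number of clusters and members follows the limits of the rule. As reported there were 7.47 clusters per 100 Mb of ungapped genome, with 5.12% of all windows. These values were 2.5 and 1.57% with gaps of at most 5 kb, 16.9 and 12.7% with 25 kb, 14.7 and 8.22% with a minimum of 8 windows and 1.96 and 1.95% with a minimum of 15. They were 3.64 and 2.94% with overlapping windows counted once, 2.35 and 2.12% with called peaks counted once, and 1.17 and 0.718% with only called peaks of 2 or more windows, in place of a stricter score, which the list lacks. Start-site limits of 500 bp and 2.5 kb and start sites of any gene type gave 5.63 to 9.23 clusters per 100 Mb.

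The intronic share, 53.6% as reported, was 51.1% and 50.2% with gaps of 5 and 25 kb, 49.9% beyond 2.5 kb of start sites, 59.0% with called peaks counted once and 43.2% with only called peaks of 2 or more windows, where other distal windows of such peaks had 44.1%. Median GC content was 52.2% with gaps of 25 kb, with a minimum of 8 windows and beyond 2.5 kb, 53.2% with a minimum of 15, 53.0% with overlapping windows or called peaks counted once and 53.8% with only called peaks of 2 or more windows. The AP-1 share was 15.0% in the last of these, 13.8% for TGACTCA alone (13.7% in others) and 8.27% in the central 200 bp (8.91% in others).

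Luminal and epithelial factor genes with a cluster numbered 12 as reported (22.2%, against 1.96% of all genes). With gaps of 5 kb they numbered 4 (7.41%, against 0.658%), and with a minimum of 15 windows 1 (1.85%, against 0.542%). Beyond 2.5 kb of start sites 6 had a cluster (11.1%, against 1.37%), and with overlapping windows counted once 6 (11.1%, against 0.976%). With called peaks counted once the number was 3 (5.56%, against 0.622%). It was 1 (1.85%, against 0.354%) with only called peaks of 2 or more windows. Over the gene body 7 had a cluster, where 0.837% of all genes did. The other 35 values computed moved by less than the limits set for them, but these were wide for this count of genes. Within them the luminal and factor genes with a cluster numbered 17 (31.5%, against 5.75% of all genes) with gaps of 25 kb. They numbered 16 (29.6%, against 3.53%) with a minimum of 8 windows and 15 (27.8%, against 2.66%) with the start-site limit of 500 bp. They fell to 10 (18.5%, against 1.71%) with start sites of any gene type. Within 10 kb of a start site they fell to 9, where 0.855% of all genes had a cluster. The cause of these moves was not tested beyond the construction of each setting. Read depth per window is unknown, so no limit by depth can be given. No paired analysis was possible because the list is 1 pooled sample with no replicates, and no replicate could be left out.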
